A study of Arabidopsis thaliana with 72 samples.

Results

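The 100 genes described here were chosen because they stood higher under bicarbonate than at pH 5.9 in leaves of the carbonate-sensitive *Arabidopsis thaliana* deme T6(c-) after 48 h, with little difference between the same treatments in the tolerant deme A1(c+). They were taken from 18603 genes. A gene was eligible if its mean over the 2 T6(c-) bicarbonate libraries at 48 h was at least 2 on the log2 CPM scale (CPM, reads per Mread of the library total) and if its A1(c+) bicarbonate mean at 48 h lay within 0.5 log2 of the A1(c+) pH 5.9 mean. The 11858 eligible genes were ranked by the gap between the lower T6(c-) bicarbonate library and the higher T6(c-) pH 5.9 library, and the top 100 were kept. The gap exceeded 0 in 7019 eligible genes and was 10.14 log2 at rank 1 and 2.57 log2 at rank 100. Because these 8 libraries chose the genes, their values are descriptions, not results of a test.

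A deme is a local population, and T6(c-) and A1(c+) are natural demes from soils poor and rich in carbonate. Plants of both demes grew in hydroponics and were 15 days old when treatment started. Each was exposed to 10 mM NaHCO3 at pH 8.3 (bic), to a buffered solution at pH 8.3 without NaHCO3, or to control solution at pH 5.9. Leaf RNA was sequenced at 3 h and 48 h, which gives 12 groups: T6(c-) under bic, pH 8.3 and pH 5.9 at both times, and A1(c+) under the same 3 solutions at both times. Each group has 2 replicates, each of them the sum of 3 technical replicates, so 72 samples fall into 24 libraries here. Plants of a line and treatment were pooled, the methods give both 2 and 3 as the number of biological replicates, and no source used here says that the 2 replicates came from separate pools, so p-values measure the spread between these libraries, which may be technical.

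Library totals ran between 63.5 and 121 Mreads (median 99.68 Mreads). Replicates differed by far more than counting noise in 10 groups, where the median dispersion index over genes (1 for counting noise alone) lay between 9.6 and 157. The T6(c-) pH 5.9 pairs reached only 1.65 at 3 h and 2.03 at 48 h. They were kept as 2 replicates, and every test that rests on them was also run with each pair counted as 1 sample, which is named where it changed a call. Of 52 genes that lay at least 3 log2 apart between the other 10 A1(c+) libraries and the 12 T6(c-) libraries, the library labelled replicate 2 of A1(c+) bic at 3 h was on the A1(c+) side for 1, against 52 for its partner. It and the replicates T6(c-) bic 3 h 2, T6(c-) pH 8.3 3 h 2, T6(c-) pH 8.3 48 h 1 and A1(c+) pH 8.3 48 h 1 stood apart from their partners, and tests are given with and without these 5 libraries.

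Leaf message was high in every library. RBCS1A, the small subunit of Rubisco, was never under 4720 CPM. Of the markers searched for, 5 of 7 for root and all 4 for seed and embryo were not among the 18603 genes. The root markers IRT1 and NRT2.1 reached at most 10.9 and 6.9 CPM. The shoot meristem markers STM and KNAT1 differed between the groups. At 48 h they summed to 21.6 to 21.7 CPM in T6(c-) at pH 5.9, 3.31 to 17.1 CPM at pH 8.3 and 4.01 to 16.7 CPM under bic. In A1(c+) they summed to 0.0666 to 0.11, 1.22 to 37.2 and 0.0796 to 0.675 CPM in the same order. The 6 mesophyll markers summed to 15700 and 21300 CPM in T6(c-) bic at 48 h, against 33000 to 56400 CPM in all other groups, so the libraries in which the 100 genes were high were also those with the least mesophyll message. Epidermal markers summed to 540 and 562 CPM in T6(c-) bic at 48 h, against 293 and 295 CPM in T6(c-) at pH 5.9. Across the other 48 h groups they ran from 237 CPM in A1(c+) bic to 569 CPM in T6(c-) at pH 8.3. Phloem markers summed to 163 and 206 CPM in T6(c-) bic at 48 h, against 102 and 105 CPM in T6(c-) at pH 5.9. In the other 48 h groups they reached 211 CPM, in A1(c+) bic. The T6(c-) bic sums of both lists thus lay inside the range of the other 48 h groups. In leaf tissue, fewer cells of a type and less RNA per cell cannot be told apart, and the part of these markers in the results was not tested.

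Of the 100 genes, 7 are on a list of 23 abscisic acid (ABA) and dehydration genes. ABA is the hormone that plants make under drought, salinity and cold. ABA binds receptors that block clade A protein phosphatases, which frees SnRK2 kinases to activate bZIP factors, and these bind ABA response elements in promoters. The genes they switch on encode dehydrins and other late embryogenesis abundant (LEA) proteins that protect dehydrating cells, and also new phosphatases that damp the signal. In the leaf, the pathway closes stomata, thickens the waxy cuticle and changes sugar metabolism.

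Members fell into 2 patterns. Of the 100, 15 differed by more than 3 log2 between the replicates of T6(c-) bic at 3 h, replicate 2 being higher. In all 18603 genes 89 did so (0.478%). This split was made after the values were seen and is a description. The smallest gap among the 15 was 3.91 log2, and the largest among the other 85 was 2.91 log2, in CRK36. They are called on-off genes because each was near 0 in some T6(c-) libraries and above 1 CPM in the rest.

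**Figure D1:**
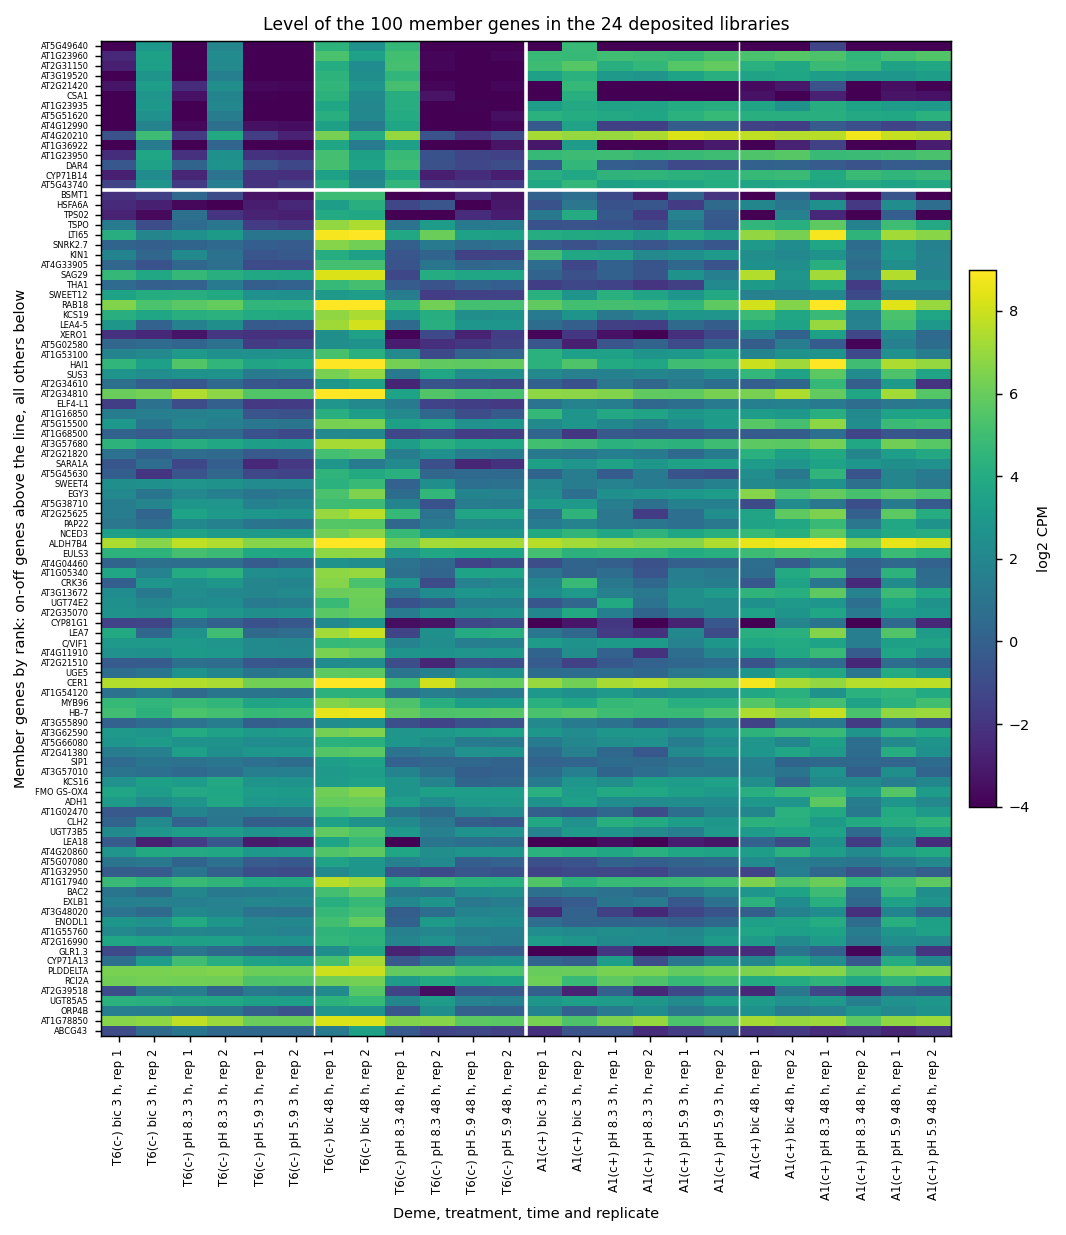
Level of each of the 100 members (rows, by rank within the 15 on-off genes and the 85 others) in each of the 24 libraries (columns, by deme, time and treatment), coloured by log2 CPM. All 100 genes are above 1 CPM in both T6(c-) bic 48 h libraries, and the on-off genes are also high in 3 other T6(c-) libraries.

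At rank 1, AT5G49640, annotated only as an uncharacterized protein, had 21.3 and 6.03 CPM in T6(c-) bic at 48 h, against no read in either T6(c-) pH 5.9 library. Against the floor of 3 reads per library (0.0322 CPM), its mean was at least 425-fold higher. The same gene had 24.9 CPM in replicate 1 of T6(c-) pH 8.3 at 48 h and 0.00787 CPM in replicate 2, which is no read above the 0.5 reads the authors added. It had 7.53 CPM in replicate 2 of T6(c-) bic at 3 h and 3.77 CPM in replicate 2 of T6(c-) pH 8.3 at 3 h. In A1(c+) it reached 27.5 CPM in the library labelled replicate 2 of bic at 3 h and at most 0.416 CPM in any other.

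All 15 on-off genes followed the same libraries. They were above 1 CPM in both T6(c-) bic 48 h libraries, in T6(c-) pH 8.3 48 h replicate 1, in T6(c-) bic 3 h replicate 2 and in T6(c-) pH 8.3 3 h replicate 2. In the remaining 7 T6(c-) libraries none was above 1 CPM, except DAR4 with 1.14 CPM in T6(c-) pH 8.3 3 h replicate 1. The high libraries were 5 of the 8 T6(c-) libraries under bic or at pH 8.3, and none of the 4 T6(c-) libraries at pH 5.9. Part of this was fixed by the choice of genes. The rule chose genes high in T6(c-) bic and low in T6(c-) at pH 5.9 at 48 h. The split chose genes higher in replicate 2 than in replicate 1 of T6(c-) bic at 3 h. Only the T6(c-) pH 8.3 libraries and the T6(c-) pH 5.9 libraries of 3 h were free of both.

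The ratios between libraries varied less from gene to gene over the 15 on-off genes than over the other 85. Replicate 2 over replicate 1 of T6(c-) bic at 48 h had a median of 0.283 over the 15 (0.212 to 0.345), against 1.12 over the other 85 (0.382 to 9.99). T6(c-) pH 8.3 48 h replicate 1 over T6(c-) bic 48 h replicate 1 had a median of 1.16 over the 15 (0.798 to 2.18), against 0.0794 over the 85. The range over the 85 was 0.00087 to 0.88. For T6(c-) bic 3 h replicate 2 over the same bic 48 h library the median was 0.351 over the 15 (0.212 to 0.616). Over the 85 it was 0.119 (0.00443 to 2.06). For T6(c-) pH 8.3 3 h replicate 2 over that library the medians were alike. They were 0.171 over the 15 (0.0964 to 0.325) and 0.164 over the 85 (0.00628 to 1.86). Each ratio thus had a narrower fold range over the 15, but its median did not always differ from that of the 85.

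Their annotated products are of several kinds. CSA1 and DAR4, both disease resistance proteins with TIR, nucleotide-binding and leucine-rich repeat parts, are neighbours on chromosome 5 on opposite strands, 3544 bases apart. CSA1 had 20.4 and 4.57 CPM in T6(c-) bic at 48 h, against 0.0351 and 0.0482 CPM at pH 5.9. DAR4 had 35.8 and 11.5 CPM, against 0.426 and 0.531 CPM. AT5G43740 encodes another resistance protein, of the CC class.

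AT1G23960, AT1G23950 and AT3G19520 are hypothetical proteins with a DUF626 domain. AT1G23960 had 38.4 and 10.9 CPM in T6(c-) bic at 48 h, against 0.0351 and 0.0697 CPM at pH 5.9. In A1(c+) it had 38.8 and 47.3 CPM under bic, against 34.1 and 44.9 CPM at pH 5.9. AT1G23935, annotated as an apoptosis inhibitory protein, overlaps AT1G23950 by 41 bases on the opposite strand, and reads within those shared bases cannot be told apart in these unstranded libraries.

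Of the 15, 9 were above 1 CPM in every A1(c+) library: AT1G23960, AT2G31150, AT3G19520, AT1G23935, AT5G51620, AT4G20210, AT1G23950, CYP71B14 and AT5G43740. AT4G20210, a member of the terpenoid cyclase superfamily, had 80.6 and 17.1 CPM in T6(c-) bic and 0.246 and 0.488 CPM in T6(c-) at pH 5.9 at 48 h, against 214 and 190 CPM in A1(c+) bic and 229 and 200 CPM in A1(c+) at pH 5.9. The other 6 (AT5G49640, AT2G21420, CSA1, AT4G12990, AT1G36922 and DAR4) had a median of 21.1 CPM in the library labelled replicate 2 of A1(c+) bic at 3 h and medians (on the log2 scale) between 0.0375 and 0.511 CPM in the other A1(c+) libraries. AT2G21420, an IBR domain protein, had 24.9 CPM in that library and 0.00484 CPM in its partner.

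**Figure D2:**
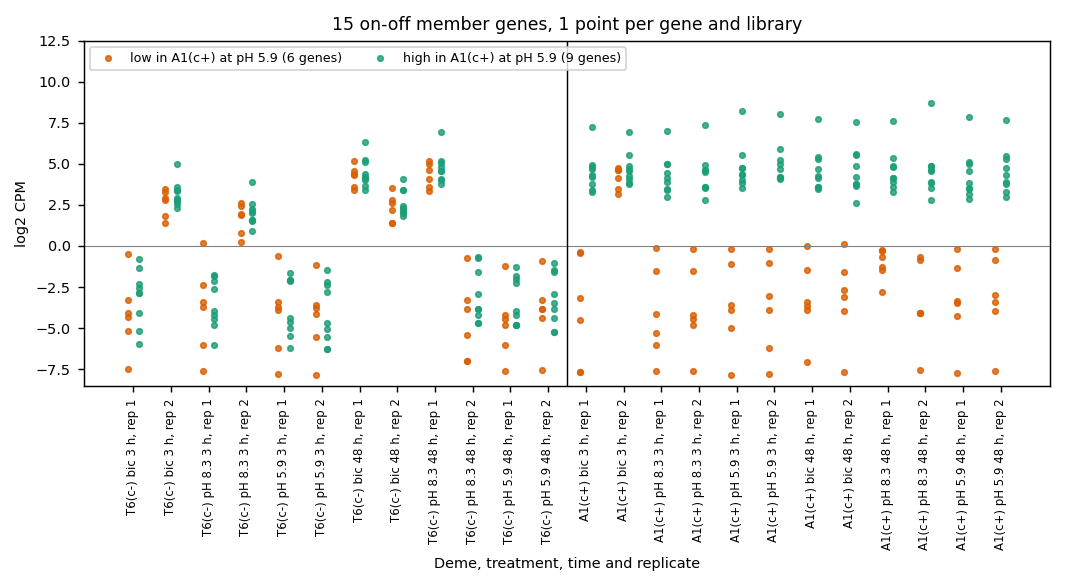
Levels (log2 CPM, y axis) of the 15 on-off genes in each of the 24 libraries (x axis), with a point per gene and library. In T6(c-) the points lie above 1 CPM in 5 libraries and, but for DAR4 in T6(c-) pH 8.3 3 h replicate 1, below it in the other 7.

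The 85 other members kept to treatment and time more closely. In T6(c-) at 48 h their bic minus pH 5.9 difference had a median of 3.50 log2 (2.61 to 7.81), against 0.30 log2 over all genes. In A1(c+) the difference had a median of 0.04 log2, which the rule fixed. TMM factors brought the T6(c-) median of all genes to 0.01 log2 and that of the 85 to 3.20 log2, so the deposited scaling adds about 0.3 log2 to each difference.

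Across the 12 groups the median level of the 85 set T6(c-) bic at 48 h apart. It was 34.2 and 43.4 CPM there in the 2 replicates, 2.65 and 3.24 CPM in T6(c-) at pH 8.3 and 3.35 and 3.04 CPM in T6(c-) at pH 5.9. In A1(c+) at 48 h it was 8.4 and 10.3 CPM under bic, 12.9 and 2.08 CPM at pH 8.3 and 10.5 and 6.47 CPM at pH 5.9. At 3 h it was 3.61 and 3.11 CPM in T6(c-) bic, 5.26 and 5.06 CPM in T6(c-) at pH 8.3 and 2.7 and 2.91 CPM in T6(c-) at pH 5.9, and 2.64 and 3.55, 2.98 and 2.33 and 3.13 and 4.58 CPM in the same order of solutions in A1(c+). No other library came near the T6(c-) bic 48 h level, and A1(c+) held the next highest at 48 h.

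Not every A1(c+) mean was steady. The A1(c+) replicates differed by more than 1 log2 for 34 of the 85 genes at pH 5.9 and for 34 under bic, and all 4 A1(c+) libraries of these groups lay within 1 log2 for only 32. SAG29, the sugar transporter SWEET15 that marks old leaves, had 182 and 6.97 CPM in A1(c+) bic, against 179 and 3.64 CPM in A1(c+) at pH 5.9. For such genes the equal means hide replicates far apart. The 2 T6(c-) bic libraries stood above all 6 A1(c+) libraries of 48 h for 72 of the 85, against 29.8% of all genes. The rule chose genes high in these T6(c-) libraries and used the A1(c+) bic and pH 5.9 libraries too. The count above the share of all genes therefore describes the choice and is no test of a difference between the demes.

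The ABA signalling members come first. NCED3, whose product catalyses the key step of ABA synthesis, had 74.1 and 98.2 CPM in T6(c-) bic at 48 h, against 7.27 and 7.33 CPM at pH 5.9. HAI1, a clade A phosphatase induced by ABA, had 825 and 924 CPM, against 55.6 and 56.3 CPM. In T6(c-) at pH 8.3 NCED3 had 25.7 and 8.62 CPM and HAI1 had 79.0 and 57.6 CPM, above pH 5.9 in every library. In A1(c+) HAI1 had 252 and 138 CPM under bic and 605 and 32.2 CPM at pH 8.3, against 170 and 123 CPM at pH 5.9, with the 3 groups overlapping.

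SNRK2.7, an SnRK2 kinase, had 100 and 75.9 CPM in T6(c-) bic at 48 h, against 1.56 and 1.89 CPM at pH 5.9. HB-7, a homeodomain leucine zipper factor induced by water deficit, had 364 and 403 CPM, against 42.7 and 45.7 CPM. AT5G66080, a further protein phosphatase 2C, had 20.0 and 19.1 CPM, against 2.51 and 2.30 CPM. HSFA6A, a heat shock factor of class A, stood at 3.26 and 4.14 log2 CPM, against -4.47 and -3.15 log2 CPM.

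The protective proteins form the next group. LTI65 (also called RD29B), a classical ABA-induced gene, had 458 and 616 CPM in T6(c-) bic at 48 h, 13.8 and 66.5 CPM at pH 8.3, and 10.9 and 10.4 CPM at pH 5.9. In A1(c+) it had 119 and 80.1 CPM under bic and 459 and 21.8 CPM at pH 8.3, against 146 and 104 CPM at pH 5.9. Both A1(c+) control libraries were thus above both T6(c-) control libraries, and replicate 1 of A1(c+) at pH 8.3 reached the lower T6(c-) bic library. RAB18, a dehydrin, had 669 and 868 CPM in T6(c-) bic and 34.3 and 34.1 CPM in T6(c-) at pH 5.9, against 280 and 95.9 CPM in A1(c+) bic and 324 and 127 CPM in A1(c+) at pH 5.9. It too was highest in A1(c+) in pH 8.3 replicate 1, with 911 CPM, against 24.7 CPM in replicate 2.

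XERO1, another dehydrin, had 5.53 and 10.9 CPM in T6(c-) bic at 48 h, against 0.155 and 0.316 CPM at pH 5.9. LEA4-5 had 141 and 277 CPM, against 7.16 and 7.22 CPM. LEA7 had 147 and 237 CPM, against 16.2 and 16.9 CPM, and LEA18 had 11.7 and 28.4 CPM, against 1.66 and 1.55 CPM. In each of these LEA genes replicate 2 of T6(c-) bic was the higher. KIN1, a small cold- and ABA-induced protein, had 16.7 and 10.2 CPM, against 0.366 and 0.370 CPM, but its tandem neighbour KIN2 is nearly identical and reads may be split between them.

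TSPO, a membrane protein degraded by autophagy and induced by ABA, had 117 and 172 CPM in T6(c-) bic at 48 h, against 2.42 and 2.54 CPM at pH 5.9. RCI2A, a small membrane protein induced by cold and salt, had 71.3 and 78.0 CPM, against 10.9 and 11.6 CPM. PLDDELTA, a phospholipase D, had 258 and 251 CPM, against 39.2 and 40.0 CPM. AT2G21820, annotated as a seed maturation protein, had 34.6 and 41.7 CPM, against 2.96 and 2.56 CPM, while seed storage genes were not among the 18603 genes.

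**Figure D3:**
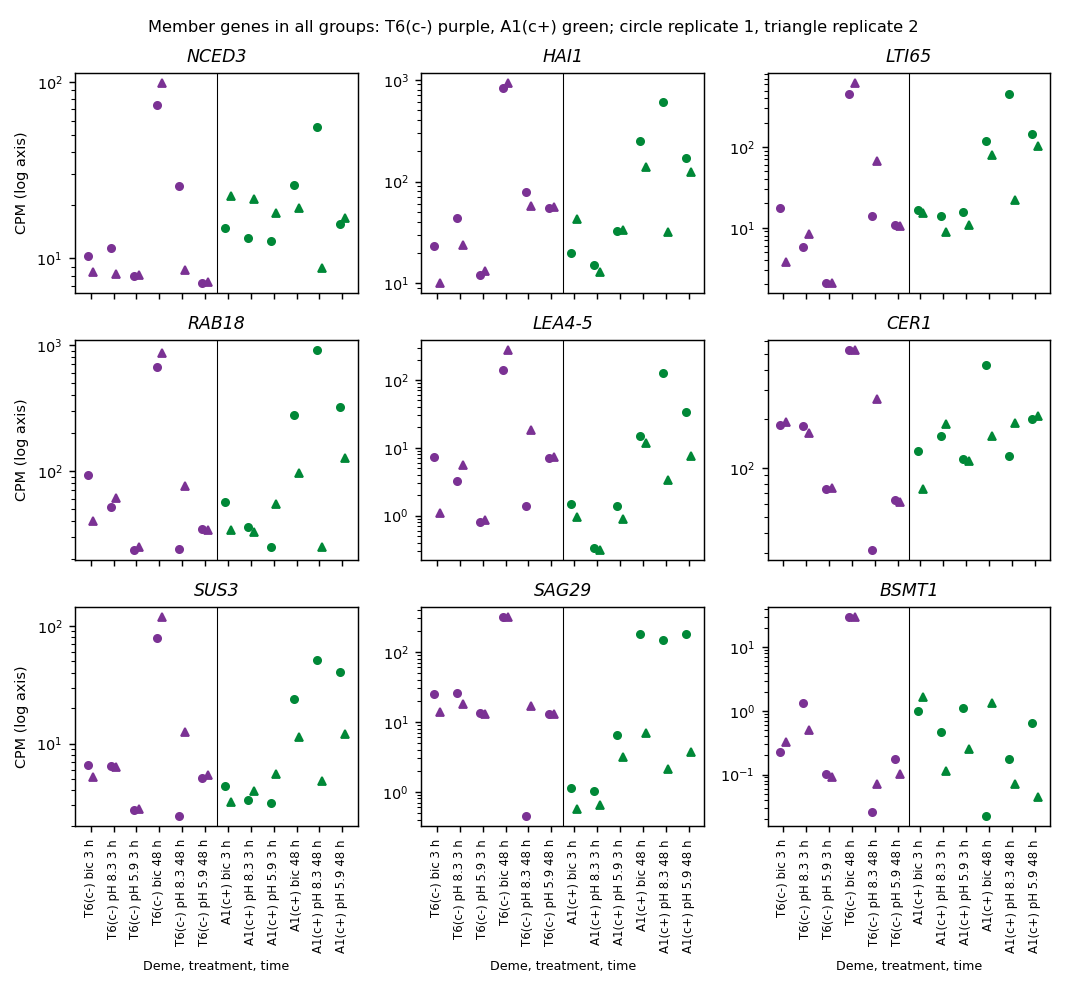
CPM on a log axis (y) of example members in each of the 24 libraries, grouped by deme, treatment and time (x), with 1 point a library. In LTI65, RAB18 and HAI1 the T6(c-) bic 48 h points lie above those of T6(c-) at pH 5.9, and A1(c+) pH 8.3 48 h replicate 1 reaches at least the lower of them in LTI65 and RAB18 but not in HAI1.

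The promoters of 3 protective members are shown because they carry the element through which ABA acts. They are the 250 bases before the annotated RefSeq start in the TAIR10 build of the Col-0 accession, not of the demes, written 5′ to 3′ on the gene's strand, and capitals mark ABRE-like matches (ACGTGNC on either strand). LTI65 lies on chromosome 5 (+), chr5:21236771-21237020, LEA4-5 on chromosome 5 (-), chr5:2090431-2090680, and XERO1 on chromosome 3 (+), chr3:18941675-18941924.
LTI65: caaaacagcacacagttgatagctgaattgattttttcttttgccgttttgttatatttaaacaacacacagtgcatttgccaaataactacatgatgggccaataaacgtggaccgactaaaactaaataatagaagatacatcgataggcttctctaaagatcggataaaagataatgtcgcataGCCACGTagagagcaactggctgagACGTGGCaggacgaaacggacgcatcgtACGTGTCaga
LEA4-5: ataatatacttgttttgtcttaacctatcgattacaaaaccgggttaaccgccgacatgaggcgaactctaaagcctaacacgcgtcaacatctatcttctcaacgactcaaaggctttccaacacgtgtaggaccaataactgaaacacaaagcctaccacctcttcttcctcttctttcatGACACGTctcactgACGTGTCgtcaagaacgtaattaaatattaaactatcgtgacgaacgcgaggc
XERO1: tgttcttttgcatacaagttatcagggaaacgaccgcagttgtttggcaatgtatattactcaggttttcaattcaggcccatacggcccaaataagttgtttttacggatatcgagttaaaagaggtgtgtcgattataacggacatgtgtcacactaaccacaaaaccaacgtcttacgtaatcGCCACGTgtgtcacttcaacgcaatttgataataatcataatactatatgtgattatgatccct
LTI65 has 3 matches, whose first bases lie 63, 38 and 10 bases before the start. LEA4-5 has 2, at 67 and 53 bases before it, and XERO1 has 1, at 64 bases before it.

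All 100 members matched RefSeq. Over windows of the 300 bases before the start, 24 of the 85 (28.2%) held an ABRE-like match, against 9.5% of 27443 protein-coding genes. Of the 15 on-off genes 3 held it (20.0%). The G-box CACGTG, which can overlap ACGTGNC, was in 16 of the 100 members, against 7.1% of protein-coding genes. The as-1 core TGACG was in 32 of the 100, against 21.3%, and the DRE core CCGAC in 19, against 13.9%. The W-box core TTGAC was in 48, against 50.4%, the GCC-box GCCGCC in 2, against 2.3%, and the heat shock element core in 7, against 11.5%. The evening element AATATCT was in 16, against 11.8%, and P1BS, the phosphate starvation element, in 9, against 6.5%. A match is a string of letters and not a bound site.

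Cuticle genes formed a further group. CER1, which makes the alkanes of leaf wax, had 527 and 530 CPM in T6(c-) bic at 48 h, 31.4 and 265 CPM at pH 8.3, and 63.7 and 61.6 CPM at pH 5.9. MYB96, a factor that links ABA to wax synthesis, stood at 6.55 and 6.26 log2 CPM under bic, 5.36 and 4.19 log2 CPM at pH 8.3, and 3.27 and 3.23 log2 CPM at pH 5.9. MYB96 was thus above the control in both alkaline solutions, and CER1 in both libraries only under bic. KCS19 and KCS16 are ketoacyl-CoA synthases, a family that elongates the fatty acids of wax. KCS19 had 114 and 164 CPM under bic, against 5.41 and 5.82 CPM at pH 5.9, and KCS16 had 8.91 and 10.8 CPM, against 1.16 and 1.21 CPM.

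Sugar genes were the next group. SAG29 had 317 and 315 CPM in T6(c-) bic at 48 h, against 12.8 and 12.8 CPM at pH 5.9. SWEET12, which exports sucrose for phloem loading, had 7.93 and 9.89 CPM, against 0.366 and 0.370 CPM, but at 3 h it was at 5.84 to 17.2 CPM in all T6(c-) libraries. Its 48 h level under bic therefore lay in the range of the 3 h libraries. SWEET4 had 19.6 and 27.0 CPM, against 1.71 and 1.83 CPM. SUS3, a sucrose synthase, had 79.6 and 120 CPM, against 5.14 and 5.44 CPM, and UGE5, a UDP-glucose epimerase, had 55.1 and 52.4 CPM, against 6.14 and 5.86 CPM. C/VIF1, an invertase inhibitor, had 26.4 and 29.3 CPM, against 2.96 and 3.04 CPM.

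Genes of volatile and defence compounds formed a further group. BSMT1, which methylates salicylate and benzoate, had 30.0 and 30.1 CPM in T6(c-) bic at 48 h, against 0.176 and 0.102 CPM at pH 5.9. TPS02, a terpene synthase, had 15.2 and 13.5 CPM, against 0.196 and 0.123 CPM, and shares sequence with close relatives, so its reads are uncertain. In A1(c+) bic both genes split the replicates: BSMT1 had 0.0220 and 1.34 CPM and TPS02 had 0.00734 and 3.35 CPM. At pH 5.9 the A1(c+) order was turned round, with 0.652 and 0.0452 CPM for BSMT1 and 0.918 and 0.0351 CPM for TPS02, and the means came out alike.

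CYP71A13, of the camalexin pathway, had 35.7 and 155 CPM in T6(c-) bic at 48 h, against 5.35 and 5.67 CPM at pH 5.9. Its pathway partner PAD3 had 25.3 and 116 CPM, against 4.20 and 4.40 CPM, and missed the list by rank. CRK36, a receptor-like kinase with a cysteine-rich outer part, had 99.6 and 38.9 CPM, against 3.38 and 4.21 CPM. AT2G39518, of an uncharacterized family, differed most between the T6(c-) bic replicates of the 85, with 4.69 and 46.9 CPM, against 0.737 and 0.766 CPM. FMO GS-OX4, which oxidises glucosinolates, had 72.0 and 96.1 CPM, against 9.71 and 9.80 CPM.

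Enzymes of detoxification and of amino acid and chlorophyll breakdown were also present. ALDH7B4, an aldehyde dehydrogenase induced by turgor loss, had 1510 and 1810 CPM in T6(c-) bic at 48 h, against 154 and 152 CPM at pH 5.9. UGT74E2, a glucosyltransferase of the auxin precursor indole-3-butyric acid, had 28.1 and 66.7 CPM, against 3.08 and 3.02 CPM. ADH1, alcohol dehydrogenase, had 60.0 and 64.1 CPM, against 8.23 and 8.22 CPM. THA1, threonine aldolase, stood at 4.70 and 5.17 log2 CPM, against 0.14 and -0.09 log2 CPM. BAC2, a mitochondrial carrier of basic amino acids, had 35.1 and 57.7 CPM, against 5.02 and 5.29 CPM. CLH2, a chlorophyllase, stood at 3.43 and 2.69 log2 CPM in T6(c-) bic and -0.16 and -0.42 log2 CPM in T6(c-) at pH 5.9, against 4.33 and 4.17 log2 CPM in A1(c+) bic and 4.12 and 4.51 log2 CPM in A1(c+) at pH 5.9. CLH2 is 1 of 13 of the 85 whose T6(c-) bic libraries did not pass all A1(c+) libraries of 48 h.

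PAP22, a purple acid phosphatase, had 47.0 and 46.1 CPM in T6(c-) bic at 48 h, against 4.34 and 4.53 CPM at pH 5.9. AT2G34810, of the berberine bridge enzyme family, had 498 and 661 CPM, against 33.3 and 35.5 CPM. AT1G78850, a mannose-binding lectin, had 312 and 322 CPM, against 52.0 and 51.7 CPM. The remaining members had bic minus pH 5.9 differences inside the range given for the 85. Those with an annotated family are UGT73B5 and UGT85A5 (glycosyltransferases), CYP81G1 (a cytochrome P450), EXLB1 (expansin-like), ENODL1 (early nodulin-like), GLR1.3 (a glutamate receptor), ELF4-L1, AT4G11910 (STAY-GREEN-like), AT1G32950 (a subtilase), AT4G20860 (berberine bridge enzyme family), AT3G62590 (a hydrolase), AT3G57680 (a peptidase), AT2G16990 (a transporter of the major facilitator type), AT3G57010, AT5G38710, AT3G55890, AT3G13672, AT2G21510 (a DNAJ protein), AT1G05340, AT5G45630, AT4G33905 and AT5G02580. AT1G53100, AT2G34610, AT5G15500, AT1G68500, AT2G35070 and AT3G48020 complete the list. The 85 lie on all 5 chromosomes (23, 16, 12, 14 and 20 on chromosomes 1 to 5), and some are near neighbours, with at most 5 genes between them: EGY3 and AT1G17940, ALDH7B4 and AT1G54120, SIP1 and AT1G55760, HSFA6A and CLH2, and AT4G04460 and CRK36.

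At the edge of the list the last members were ORP4B, AT1G78850 and ABCG43, with gaps of 2.60, 2.58 and 2.57 log2. The next genes were PAD3, AIRP2 and CYP76C2, with 2.52, 2.52 and 2.51 log2. The edge therefore separates genes with nearly equal values.

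At high pH without NaHCO3 the 85 stood on both sides of the control in T6(c-) at 48 h. Their pH 8.3 minus pH 5.9 difference had a median of 0.02 log2, against 0.05 log2 over all genes. Both pH 8.3 libraries were above both pH 5.9 libraries for 25 of the 85 (29.2% of all genes) and below for 23 (21.7% of all genes), which is near the background in both directions. This comparison shares its pH 5.9 libraries with the rule and is given as values only. Examples above the control are MYB96 and NCED3, given above, and an example below is LEA7 with 0.412 and 5.76 CPM at pH 8.3, against 16.2 and 16.9 CPM at pH 5.9.

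A1(c+) at pH 8.3 split by replicate. Against the A1(c+) pH 5.9 mean at 48 h, the median of the 85 was 0.64 log2 in replicate 1 and -1.77 log2 in replicate 2. Replicate 1 was more than 1 log2 above replicate 2 for 73 of the 85, against 18.8% of all genes, and the median gap was 2.66 log2, against 0.31 log2 over all genes. LEA4-5, for example, had 127 and 3.40 CPM, and ADH1 had 53.0 and 2.89 CPM. The median level of the 85 was 12.9 CPM in replicate 1 and 2.08 CPM in replicate 2. Replicate 1 is 1 of the 5 libraries that stood apart.

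Between the demes at 48 h, the 85 were lower in T6(c-) than in A1(c+) in the control solution. The T6(c-) minus A1(c+) difference at pH 5.9 had a median of -1.29 log2, with both T6(c-) libraries below both A1(c+) libraries for 63 (33.8% of all genes). Under bic the difference had a median of 2.22 log2, with both T6(c-) libraries above for 80 (42.6% of all genes). EULS3, a lectin, shows both sides, with 111 and 115 CPM in T6(c-) bic and 11.5 and 11.3 CPM in T6(c-) at pH 5.9, against 30.1 and 39.2 CPM in A1(c+) bic and 29.3 and 20.3 CPM in A1(c+) at pH 5.9. These libraries chose the genes, so the values describe the choice.

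The comparisons that follow use the 16 libraries that the rule did not. In T6(c-) at 3 h, bic against pH 5.9, limma called 0 of the 100 members at an adjusted p under 0.05 with a log2 fold change beyond 1, and 0% of all genes. Without adjustment 4 members had a p under 0.05 in limma, against 1389 of all 18603 genes. The 4 were AT1G16850, SARA1A and AT5G07080 with positive and AT1G02470 with a negative log2 fold change. limma with voom weights also called 0. The median was 0.66 log2 over the 100 members and 0.37 log2 over the 85, against -0.07 log2 over all genes.

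Among the 85, LTI65 had 17.3 and 3.74 CPM in T6(c-) bic at 3 h, against 2.07 and 2.07 CPM at pH 5.9, which gave 1.96 ± 1.21 log2 (SE, n = 2 each) and an adjusted p of 0.806 in limma. CER1 had 183 and 192 CPM, against 74.4 and 74.9 CPM, and MYB96 stood at 4.72 and 4.56 log2 CPM, against 3.61 and 3.68 log2 CPM. Both bic libraries lay above both controls for all 3 genes, and none passed the test. CER1 gave 1.33 ± 0.72 log2 with an adjusted p of 0.755 in limma, and MYB96 gave 1.00 ± 0.48 log2 with an adjusted p of 0.703. Each SE and p here and below rests on 1 spread per gene shared by all groups of the fit, not on the libraries compared alone.

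The 5 highest members in this comparison were on-off genes, AT1G23960, AT5G49640, AT5G51620, AT2G31150 and AT4G20210, each high in replicate 2 alone. The 5 lowest were AT2G25625, AT1G02470, CYP71A13, AT2G41380 and AT2G39518. AT2G25625, annotated as a histone deacetylase-like protein, had 2.75 and 1.17 CPM in T6(c-) bic at 3 h, against 7.03 and 6.60 CPM at pH 5.9, although it had 128 and 201 CPM under bic at 48 h, against 11.9 and 12.2 CPM. AT1G02470 had 0.778 and 0.809 CPM at 3 h, against 2.57 and 2.75 CPM, and both bic libraries lay below both controls.

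Calls at 3 h depended on the libraries that stood apart. Without those 5 libraries limma called 6 members in T6(c-) bic against pH 5.9, all higher, against 0.710% of all genes called higher and 1.70% in either direction: LEA4-5 (3.13 log2, adjusted p = 0.0176), LTI65 (3.06, adjusted p = 0.0208), AT1G16850 (2.14, adjusted p = 0.0191), AT2G31150 (1.78, adjusted p = 0.0467), CER1 (1.29, adjusted p = 0.0152) and MYB96 (1.08, adjusted p = 0.0189). T6(c-) bic then has 1 library at 3 h, which the model assumes to vary like the other groups. In this and every other fit without the 5 libraries, 11 libraries remain, and the spread comes from 3 pairs, A1(c+) at pH 5.9, A1(c+) at pH 8.3 and T6(c-) at pH 5.9, all at 3 h, of which the T6(c-) pair is the one with a dispersion index of 1.65. The other 5 groups have 1 library each, so calls that rest on them have no replicate check of their own. With only the 2 groups compared in the fit, 12 members were called. The share of all genes called in that fit is not given here, so the count is no result about the members.

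In T6(c-) at pH 8.3 against pH 5.9 at 3 h the median was 0.97 log2 over the 100 members and 0.81 log2 over the 85. Over all genes it was -0.01 log2. A positive difference was found in 94 of 100 members and in 79 of the 85, against 8962 of all 18603 genes. All 15 on-off genes were positive, but their median level was 0.0754 CPM in pH 8.3 replicate 1 and 3.77 CPM in replicate 2. Before adjustment limma gave 9 members a p under 0.05, against 1550 of all 18603 genes. After adjustment it called 0 members and 0% of all genes, also 0 members under voom weights. Without the 5 libraries, with 1 pH 8.3 library left, it called 11, all higher, against 1.38% of all genes called higher and 2.19% in either direction, HAI1 (1.79 log2, adjusted p = 0.0168), LEA4-5, CER1, MYB96, EULS3 and AT1G16850 among them, and with only the 2 groups compared it called 31. The share of all genes called with only the 2 groups compared is not given here, so the 31 are no result about the members. At pH 8.3 KIN1 had 4.70 and 1.87 CPM, against 0.702 and 0.764 CPM at pH 5.9. The 2 alkaline comparisons share their controls, so they are set side by side without a test between them.

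In A1(c+) at 3 h the medians of the members were near those of all genes. Bic against pH 5.9 gave a median of -0.02 log2 over the 100 (all genes -0.19), and pH 8.3 against pH 5.9 gave -0.23 log2 (all genes -0.27). With TMM factors the signs turned, to 0.18 log2 (all genes 0.01) and 0.04 log2 (all genes 0). Before adjustment limma gave 4 and 2 members a p under 0.05, against 2590 and 4412 of all 18603 genes. After adjustment it called 0 members in both, against 0% and 0.957% of all genes, also 0 members under voom weights. Without the 5 libraries it called 11 members under bic, with 1 bic library left (7.29% of all genes), AT1G16850, EULS3 and RCI2A higher and KCS16 and KCS19 lower among them, and 10 at pH 8.3 (8.60% of all genes), HAI1 (-1.23 log2, adjusted p = 0.00374) and LEA4-5 lower among them.

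The difference of the bic responses at 3 h, T6(c-) minus A1(c+), tests in unused libraries what the rule selected at 48 h. Its median was 0.58 log2 over the 100 members and 0.46 log2 over the 85, against 0.12 log2 over all genes. Of the 100 members 71 were positive, 59 of them among the 85, against 11752 of all 18603 genes. Before adjustment limma gave 4 members a p under 0.05, against 1334 of all 18603 genes. After adjustment it called 0 members and 0% of all genes, also 0 members under voom weights. Without the 5 libraries, with 1 bic library in each deme, it called 1, HAI1, with 1.59 log2 (adjusted p = 0.0461), against 0.753% of all genes.

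**Figure D4:**
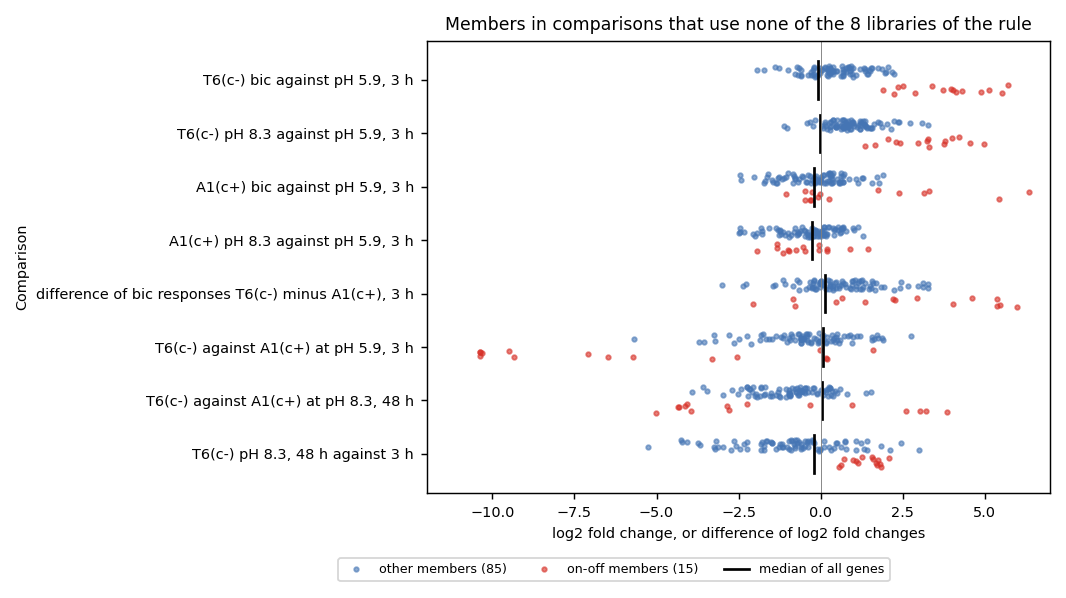
log2 fold change (x axis) of each member in the 8 comparisons that use none of the rule's 8 libraries (rows), on-off genes and the 85 others in separate colours, with the median of all genes marked. The median of the 85 lies to the right of that of all genes in both T6(c-) 3 h comparisons with pH 5.9. Over the 8 comparisons the lowest and highest values, -10.38 and 6.36 log2, belong to on-off genes.

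In the control solution at 3 h, T6(c-) against A1(c+), limma called 5 of the 100 members, all lower in T6(c-), against 1.32% of all genes called lower and 2.53% in either direction. SARA1A, a small GTPase of vesicle transport, had 0.172 and 0.284 CPM in T6(c-), against 10.8 and 11.9 CPM in A1(c+) (-5.68 ± 0.82 log2, SE, n = 2 each, limma adjusted p = 0.0177). AT4G20210, an on-off gene, had 0.322 and 0.144 CPM, against 304 and 267 CPM (adjusted p = 0.0442 in limma).

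KIN1 had 0.702 and 0.764 CPM in T6(c-), against 5.87 and 7.80 CPM in A1(c+) (-3.21 log2, limma adjusted p = 0.0468). CLH2 had 0.897 and 0.878 CPM, against 9.68 and 7.42 CPM (-3.26 log2, adjusted p = 0.0318), and AT1G16850 had 0.676 and 0.581 CPM, against 7.36 and 9.14 CPM (-3.71 log2, adjusted p = 0.0306). In all 5 genes the demes did not overlap. Leaving out any of the 4 libraries compared, or counting the T6(c-) pair as 1 sample, left 0 calls, with the log2 differences kept (adjusted p between 0.194 and 0.273 with the pair as 1 sample). Without the 5 libraries that stood apart 33 members were called (11.2% of all genes), 27 of them lower.

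Comparing T6(c-) with A1(c+) at pH 8.3 and 48 h, limma called 0 members and 0.0591% of all genes, also 0 members under voom weights. Before adjustment it gave 12 members a p under 0.05, against 2202 of all 18603 genes. The median was -0.89 log2, against 0.03 log2 over all genes, but it turned to 0.49 log2 without the 5 libraries that stood apart, when 21 members were called with 1 library in each deme (6.88% of all genes). Leaving out A1(c+) replicate 2 gave 25 calls and a median of -2.12 log2, and leaving out replicate 1 gave 1 call and a median of 0.42 log2. Leaving out T6(c-) replicate 1 or 2 gave 1 and 2 calls. The sign of the median differed with the A1(c+) pH 8.3 library used. Shares of all genes called with a library left out are not given here, so those call counts are no result about the members.

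In T6(c-) at pH 8.3, 48 h against 3 h, limma called 1 member higher and 5 lower, against 1.58% and 6.18% of all genes (7.76% in either direction). RCI2A had 9.17 and 15.1 CPM at 48 h, against 75.6 and 72.0 CPM at 3 h (-2.65 log2, limma adjusted p = 0.0031). BSMT1 had 0.0260 and 0.0709 CPM, against 1.31 and 0.506 CPM, and TPS02 had 0.0365 and 0.00787 CPM, against 1.74 and 0.246 CPM. Their differences were -4.25 and -5.27 log2 (limma adjusted p of 0.0242 and 0.0258).

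SWEET12 had 2.76 and 0.323 CPM at 48 h, against 17.2 and 14.8 CPM at 3 h (-4.08 log2, limma adjusted p = 0.0299), and AT2G34810 had 11.6 and 44.5 CPM, against 174 and 106 CPM (-2.58 log2, adjusted p = 0.0337). AT5G07080, an acyltransferase family member, was the gene called higher, with 3.25 and 4.56 CPM, against 1.14 and 1.86 CPM (1.40 log2, adjusted p = 0.0183). All 6 pairs of groups were free of overlap. For the counts that follow, a share of all genes is given only for the fit without the 5 libraries. The other counts are no result about the members. Leaving out a library gave 1 to 7 calls, the fewest without T6(c-) pH 8.3 3 h replicate 1 and 3 without replicate 2, and leaving out the 5 libraries gave 30 with 1 library at each time (14.6% of all genes). With the T6(c-) pH 5.9 pair counted as 1 sample 4 were called, and SWEET12 (adjusted p = 0.0502) and AT2G34810 (adjusted p = 0.0554) were lost in limma.

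Genes of related pathways that are not members are described next. Of 179 listed non-members, limma on all 12 groups called 65 higher and 4 lower in T6(c-) bic at 48 h (38.5%), against 13.8% of all genes higher and 5.14% lower (18.9% in either direction). Leaving out a library of either group compared gave 38 to 55 calls, the fewest without either pH 5.9 library (40 and 38) and 43 without bic replicate 2, and counting the pH 5.9 pair as 1 sample gave 35. In A1(c+) bic limma called 0 of the 179, against 0.333% of all genes, with 30 at an unadjusted p under 0.05 and 0 under voom weights. Leaving out either A1(c+) bic library gave 5 calls. The lists were drawn up with earlier results of these data known and share their libraries with the rule. The list counts and p-values here and below are therefore a description and no independent support for a pathway.

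All 16 ABA and dehydration genes outside the 100 were called higher in T6(c-) bic at 48 h, with a median of 2.09 log2, and 12 were called with the pH 5.9 pair counted as 1 sample. HAI2, a sister phosphatase of HAI1, had 131 and 124 CPM under bic, against 5.98 and 6.48 CPM (4.36 log2, limma adjusted p = 0.0017). RD26, an ABA-induced NAC factor, had 292 and 385 CPM, against 28.6 and 29.9 CPM (3.52 log2, adjusted p = 0.0128). The receptor-side phosphatases ABI1 and ABI2, the bZIP factors ABF2 and ABF3 and P5CS1 of proline synthesis were among the 16. In A1(c+) the median of the 16 was 0.56 log2.

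Of 20 jasmonate genes 12 were called higher in T6(c-) bic at 48 h, JAZ7 (3.43 log2, limma adjusted p = 0.0287) and VSP1 (3.39, adjusted p = 0.0401) among them, and of 13 phosphate starvation genes 7, among them the transporter PHT1;5 (5.34, adjusted p = 0.00182) and MGD3 (3.76, adjusted p = 0.00103), a galactolipid synthase. With the T6(c-) pH 5.9 pair counted as 1 sample, 6 jasmonate and 5 phosphate starvation genes were called, and a left-out library of the groups compared gave 6 to 8 and 5 to 7. Of 15 iron deficiency genes 5 were called, but 1 with the pair as 1 sample and 1 to 2 with a library left out. BHLH38, a factor of the iron deficiency response, had 538 and 278 CPM in T6(c-) bic and 1.96 and 2.74 CPM in T6(c-) at pH 5.9, against 644 and 62.3 CPM in A1(c+) bic and 0.566 and 1.36 CPM in A1(c+) at pH 5.9. limma gave it an adjusted p of 0.00969 for bic in T6(c-), against 0.0761 for bic in A1(c+), and the difference between the demes was not tested. The iron deficiency list had a median of 2.59 log2 in T6(c-) bic and a larger one, 2.9 log2, in A1(c+) bic. The jasmonate list had 2.2 and 1.15 log2 and the phosphate starvation list 2.47 and 0.6 log2 in the same order. The lack of calls in A1(c+) is therefore not a lack of change. The lipid transfer proteins LTP3 and LTP4 were among 4 of 8 cuticle genes called (5.28 and 4.81 log2, adjusted p of 0.00117 and 0.0251), and 2 of the 8 were called with the pair as 1 sample.

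Also called higher were 6 of 12 detoxification genes (GSTU4 and CYP81D8 among them), 5 of 11 senescence genes, 3 of 14 salicylate and camalexin genes (ALD1 and PAD3 among them), 2 of 12 genes of sugar starvation, and 1 each of the sulfur (of 11), hypoxia (of 9, HRE2) and sodium transport lists (of 5, NHX1). Cell wall loosening genes went both ways, 2 higher and 3 lower of 10, XTH23 higher and EXPA8 lower (-3.13 log2, limma adjusted p = 0.0266). Of 7 cell cycle genes 1, PCNA1, was lower. The 8 ethylene genes had a median of 0.87 log2 and the 8 heat shock genes one of -0.15 log2 in T6(c-). With the T6(c-) pH 5.9 pair counted as 1 sample, 4 senescence genes, 2 detoxification genes, 1 sodium transport gene and 1 cell wall gene in each direction were called, and the calls in the salicylate and camalexin, sugar starvation, sulfur, hypoxia and cell cycle lists were lost. Leaving out T6(c-) bic replicate 2 or either pH 5.9 library also left 2 detoxification genes and no salicylate and camalexin, sulfur, hypoxia or cell cycle gene called.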

How the data were processed

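The authors sequenced unstranded paired-end libraries of leaf RNA. Their methods name TopHat, Bowtie and DESeq 1.18.0, and the submitters' processing notes name FastQC, Trim Galore, Salmon, DESeq2 and the build TAIR10. The deposited values are log2 CPM of each library's total with 0.5 reads added, for genes above 1 CPM in at least 6 of 24 columns, each column being the authors' sum of 3 technical replicates. The values gave back whole reads within 0.1 read. CPM printed here is 2 raised to the deposited value. No column was left out.

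The members and gene lists were chosen with earlier results of these data known. limma 3.58.1 (R 4.3.3) was fitted with a mean-variance trend to the 16 columns that the selection did not use, and to all 24 for the listed genes at 48 h, with Benjamini-Hochberg adjustment over 18603 genes, an adjusted p limit of 0.05 and a log2 fold change beyond 1. It was tested on simulated data, where every gene had the same dispersion and no library stood apart. That test therefore does not show how the fit performs on these libraries. Named genes were ranks 1 to 15, the 3 genes on either side of rank 100, the 10 most abundant, members found in a list, called members (at most 3 at either end) and the 5 highest and 5 lowest in T6(c-) bic at 3 h. In each list they were the 2 non-members with the largest change. Other genes were chosen after their values were seen. Alternatives were other scalings, a pseudocount, filters, other models and left-out libraries. Promoters came from the RefSeq annotation of TAIR10, where 18536 genes matched. Python 3.11.15, pandas 2.3.3, NumPy 2.4.6 and matplotlib 3.10.9 were used.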

Additional observations from a re-analysis of the deposited data

How the results depend on the processing

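Under other selection settings the list kept 84 members with TMM factors, 78 with quantile normalization, 73 with a pseudocount of 1 CPM, 85 with means in place of minimum and maximum, 93 with a level of at least 1, 44 with A1(c+) means within 0.25, 65 with means within 1, and 62 to 70 with a T6(c-) bic 48 h library left out. Medians of the members that changed sign were T6(c-) against A1(c+) at pH 8.3 (-0.89, but 0.49 without the 5 libraries and 0.42 without A1(c+) replicate 1), A1(c+) bic at 3 h (-0.02, but 0.18 with TMM factors, 0.27 with quantile normalization, 0.01 with the filter and 0.14 without A1(c+) pH 5.9 replicate 2) and A1(c+) pH 8.3 at 3 h (-0.23, but 0.04 with TMM factors and 0.15 with quantile normalization). The alternatives added after seeing the data are voom weights, the pairs of T6(c-) at pH 5.9 as 1 sample each, the set without the 5 libraries that stood apart, and the 85 members alone. edgeR and DESeq2 were not run because the deposited unit is log2.

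The counts in this paragraph have no share of all genes beside them here and are no result about the members. With only the groups compared in the fit, members called were 12 in T6(c-) bic at 3 h, 31 in T6(c-) pH 8.3 at 3 h and 5 in A1(c+) pH 8.3 at 3 h. They were 34 in T6(c-) against A1(c+) at pH 5.9 and 0 in T6(c-) pH 8.3 at 48 h against 3 h. With all 12 groups they were 1 in A1(c+) pH 8.3 at 3 h, 15 in T6(c-) against A1(c+) at pH 5.9 and 1 in T6(c-) against A1(c+) at pH 8.3. Without the 5 libraries they were 6, 11, 11, 10, 1, 33, 21 and 30 in T6(c-) bic, T6(c-) pH 8.3, A1(c+) bic, A1(c+) pH 8.3, the difference of responses, T6(c-) against A1(c+) at pH 5.9 and at pH 8.3, and T6(c-) pH 8.3 over time. T6(c-) against A1(c+) at pH 5.9 gave 11 calls with quantile normalization, 3 with no trend, 1 with voom weights, 0 with the pairs as 1 sample and 0 to 0 with a library left out. T6(c-) pH 8.3 over time gave 3 calls with a filter at a mean log2 CPM of 1, 3 with voom weights and 1 to 7 with a library left out. T6(c-) against A1(c+) at pH 8.3 gave 1 to 25 calls with a library left out.

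The T6(c-) pH 8.3 median at 3 h was 1.16 with quantile normalization, 0.66 with the pseudocount, 0.82 with the filter, 0.85 without the 5 libraries, 0.81 over the 85, and 0.85 to 0.97 with a library left out. List genes called at 48 h were 35 in T6(c-) with the pairs as 1 sample and 38 to 55 with a library left out, and 0 to 5 in A1(c+). The cause of these shifts was not tested.

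Replicate numbers did not pair the samples: deviations of same-numbered libraries correlated between -0.42 and 0.44 over 66 pairs of groups, 11 of them over 0.1. With replicate as a block, 4 members were called in T6(c-) against A1(c+) at pH 5.9, 7 in T6(c-) pH 8.3 over time and 0 in the other 6 comparisons, and 65 list genes in T6(c-). Shares of all genes called with the block are not given here, so these counts are no result about the members. With 2 libraries a group, differences smaller than the replicate gaps could not be detected at any depth.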
